A study of Mus musculus with 12 samples.

Results

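Peaks assigned to retained-intron transcripts make up 10822 of the 53394 peaks in a map of the RNA mark m6A in mouse lung. A peak is a stretch of RNA found more often among fragments pulled down with an antibody against m6A (the IP) than in RNA of the same group that was not pulled down (the input). Members are all entries, in either deposited peak list, whose assigned transcript carries the Ensembl biotype retained_intron, whatever region the annotation gives. The list of the asthma group holds 5569 of them among 27292 peaks (20.4%), and the list of the control group 5253 among 26102 (20.1%). Wilson 95% intervals for these shares, which cover counting error alone here and in all later shares, run from 19.9 to 20.9% and from 19.6 to 20.6%.

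The study mapped m6A in allergic asthma, using female BALB/c mice of 6–8 weeks. Mice of the OVA group were sensitized to ovalbumin (OVA) with an aluminium adjuvant on days 0 and 7. They then breathed a 3% OVA aerosol for 30 min a day on days 14–20, and lungs were taken on day 21. Mice of the PBS group were given phosphate-buffered saline (PBS) alone at each of these steps. Ribosome-depleted total lung RNA of 3 mice per group gave 12 libraries, an IP and an input for each mouse. The deposited values are 1 peak list per group, so no peak has a value for a single mouse, and how the 3 mice were combined is not stated in the sources used here. All differences between the lists are therefore 1 list against 1 list, and whether any of them exceeds the spread between mice was not tested. The lists give no read counts, so the depth behind each peak is unknown. Whole lung was sequenced in bulk, where fewer cells of a type and less RNA per cell cannot be told apart.

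Intron retention leaves an intron in an otherwise spliced RNA, and such RNA is often kept in the nucleus or degraded. The methyl group of m6A is added during transcription by the METTL3 and METTL14 complex, mostly in long internal exons and near stop codons, and the nuclear reader YTHDC1 and several hnRNP proteins link it to splicing. Splicing regulators such as SR proteins and CLK kinases are known for retained introns of their own, and activated immune cells change which introns they keep.

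Each peak carries a fold enrichment, the ratio of IP to input signal, with a log10 p and a log10 false discovery rate (FDR). The FDR was under 0.05 for 5470 OVA and 5159 PBS members, 98.2% of each, against 98.1% and 97.8% of all peaks. A fold enrichment of at least 2 was reached by 4784 OVA members (85.9%) and 4484 PBS members (85.4%), against 89.9% and 89.4% of all peaks. The members lie on 3929 transcripts of 3441 genes for OVA and on 3698 transcripts of 3267 genes for PBS. RefSeq classes 99.0% of the gene names it lists as protein-coding in either list, 3385 of 3419 and 3215 of 3247. They are thus mostly peaks of ordinary protein-coding genes for which the annotation chose a retained-intron transcript.

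The label says less than it seems to. A peak was compared, block by block, with the genomic span of its own assigned transcript. No base was shared by 2734 OVA members (49.1%, 47.8 to 50.4) and 2684 PBS members (51.1%, 49.7 to 52.4). Most of these lay beyond the transcript's 3′ end, 2012 in the OVA list (36.1% of members) and 1968 in the PBS list (37.5%). A further 714 OVA members (12.8%) and 709 PBS members (13.5%) lay before its start. Only 1533 OVA members (27.5%) and 1411 PBS members (26.9%) were wholly inside it, and 1302 (23.4%) and 1158 (22.0%) were partly inside. The data thus go against reading each of these peaks as methylation of a retained intron, and they are called by their assignment throughout.

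Retained-intron transcripts are short fragments of a gene in the annotation, with a median span of 3113 bp among those assigned for OVA and 3110 bp for PBS. Transcripts of the protein_coding biotype that were assigned to peaks span a median of 12075 and 12163 bp. Peaks downstream of a retained-intron transcript started a median of 2511 bp past its end for OVA and 2541 bp for PBS. Peaks upstream of it ended a median of 2773 and 2688 bp before its start. Peaks assigned to protein_coding transcripts shared no base with them in 32.4% and 32.7% of cases, and were downstream in 9.18% and 9.19%. The processed_transcript biotype, likewise noncoding, had shares of no overlap of 48.5% and 49.2%, near those of the retained-intron peaks. These shares stand side by side without a test, because peaks of the same gene are not independent.

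The region named by the annotation is that of some transcript at the site, not always the assigned one. Among members annotated as exonic, the exon belonged to the assigned retained-intron transcript itself for 257 of 1829 OVA members (14.1%) and 231 of 1693 PBS members (13.6%). The named transcript was of the same gene in 96.9% and 96.4%. Exonic peaks of protein_coding transcripts named their own transcript in 24.8% and 25.6%. The gene on which the peak was called was the assigned gene for 95.9% of retained-intron peaks in both lists, against 77.0% and 77.1% of protein_coding peaks. The processed_transcript peaks were near the retained-intron peaks in both traits, with 92.3% and 91.8% called on the assigned gene and 15.5% of exonic peaks in both lists on an exon of their own transcript.

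The 3′ UTR is where the retained-intron peaks were mostly annotated. It held 3405 OVA members (61.1%, 59.9 to 62.4) and 3245 PBS members (61.8%, 60.5 to 63.1). Other exons held 1829 (32.8%) and 1693 (32.2%), and 5′ UTRs 335 (6.02%) and 315 (6%). Protein_coding peaks had a lower 3′ UTR share, 51.8% and 51.4%, and a higher 5′ UTR share, 20.4% and 19.8%. The processed_transcript peaks of the OVA list were distributed like the retained-intron peaks, with 60.4% in 3′ UTRs and 6.21% in 5′ UTRs.

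Place and region were related. Of the 3′ UTR members, 56.4% for OVA and 57.7% for PBS shared no base with the assigned transcript, and 19.5% and 19.9% lay inside it. Exonic members lay inside it in 40.5% and 38.9% of cases. The 5′ UTR members missed it least often, with no shared base in 13.4% and 15.6%. Protein_coding peaks likewise missed their transcript least in 5′ UTRs, at 3.14% and 3.24%, and most in 3′ UTRs, at 46.3% and 46.9%.

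A peak is stored as 1 or more exonic blocks, the pieces left when introns are skipped. More than 1 block was present in 28.2% of OVA members and 24.1% of PBS members, against 24.1% and 21.4% of all peaks. The summed blocks had a median of 330 bp for OVA and 301 bp for PBS. With skipped introns counted, the span had a median of 416 and 389 bp.

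Fold enrichment of the retained-intron peaks had an OVA median of 4.48 (quartiles 2.50 and 9.52, highest 113). The PBS median was 4.50 (quartiles 2.52 and 9.27, highest 106). Protein_coding peaks had medians of 5.99 and 5.82, and all peaks 5.59 and 5.44. Within each region the order of the 2 biotypes was the same. In 3′ UTRs the retained-intron medians were 4.98 and 4.93 beside protein_coding medians of 6.67 and 6.42, and in exons 3.71 and 3.95 beside 5.39 and 5.10. In 5′ UTRs they were 4.52 and 4.49 beside 5.48 and 5.575.

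Inside the class, peaks that straddled an edge of the assigned transcript had the highest medians, 6.31 for OVA and 6.54 for PBS. Peaks wholly inside it had 3.73 and 3.82, and peaks that shared no base 4.24 and 4.205. The exonic peaks whose exon was that of the retained-intron transcript itself were lower, at 3.39 and 3.45. They were also short, with a median of 151 exonic bp in both lists, against 330 and 301 bp for all members. Peaks of several blocks had medians of 5.81 and 5.92, and those of 1 block 4.20 and 4.17. Members that straddled an edge were also longer, with medians of 476 and 478 exonic bp, against 240 and 241 bp for members wholly inside. Protein_coding peaks that straddled an edge likewise had higher median fold enrichments, 7.395 and 7.375, than those wholly inside, 6.16 and 5.92.

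The highest fold enrichment among OVA members was that of Shank1 (ENSMUSG00000038738), which encodes a scaffold of the postsynaptic density. Its exonic peak at chr7:44353685-44354344 (GRCm38, as are all positions below) reached 113, with a log10 p of -92.4. The overlapping PBS peak, chr7:44354014-44354344, was shorter and had a fold enrichment of 40.0 with a log10 p of -12.6. Both lie downstream of the assigned transcript. Ankrd17, which encodes an ankyrin-repeat protein, had an exonic peak wholly inside its retained-intron transcript at chr5:90365197-90365767. Its fold enrichment was 108 for OVA and 43.4 for PBS.

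Alg8 encodes a glucosyltransferase that builds the N-glycan precursor in the endoplasmic reticulum. Its 3′ UTR peak at chr7:97391557-97392185 had a fold enrichment just over 100 for OVA (log10 p -229) and 49.8 for PBS (log10 p -215). Washc1, a subunit of the WASH complex that nucleates actin on endosomes, had nearly the same value in both lists, 91.9 and 89.8, in a 3′ UTR peak at chr17:66119073-66119729. The zinc-finger gene Zfp420 was the highest of the PBS list with 106, beside 91.9 in the OVA list, at chr7:29875405-29876274 and chr7:29875375-29876244. Those 5 genes also had the largest products of both fold enrichments among overlapping pairs.

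Other leaders of the PBS list were far lower in the OVA list. Leaders of either list were picked for a high value there, and that choice itself favours a lower value in the other list. Tespa1, which acts in T-cell receptor signalling in thymocytes, had a 3′ UTR peak at chr10:130362020-130364051 with 83.9 in the PBS list and 10.2 in the OVA list. In the same order, Grik2, a kainate receptor subunit, had 61.2 and 4.76, the OVA peak being shorter. Gm15471, a predicted gene, had 60.7 and 18.4, and its PBS peak is annotated to an exon of the retained-intron transcript itself. For Tespa1 the log10 p ran the other way, -27.8 in the PBS list and -58.5 in the OVA list, so a higher ratio did not go with a lower p.

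A log10 p is stored as minus infinity for 11 OVA members and 7 PBS members, and these were ranked as the lowest. Finite values in the same column reach -15400 among OVA members and -6220 among PBS members, so the stored infinity fixes no order among very low p. Phf3 encodes a protein that binds the tail of RNA polymerase II, and its peak chr1:30803719-30805939 covered 2221 bp with a fold enrichment of 78.7 for OVA and 50.1 for PBS. The zinc-finger gene Zfp865 had an exonic peak with the same ends in both lists, chr7:5030152-5031709, at 75.1 and 40.0. Trio, a guanine nucleotide exchange factor of cell migration, had 60.9 and 38.7 downstream of its retained-intron transcript.

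Nod2 encodes the sensor of bacterial muramyl dipeptide. Its 5′ UTR peak of 4 blocks, chr8:88647345-88660585, had 66.3 for OVA and 22.6 for PBS. Bbc3, the gene of the pro-apoptotic protein Puma, had 46.3 and 31.7 in a 3′ UTR peak inside the assigned transcript. The kinase genes Oxsr1, whose product acts on ion cotransporters, and Rps6ka5, whose product phosphorylates histones, had a log10 p of minus infinity in the PBS list. Oxsr1 had fold enrichments of 38.0 there and 30.4 in the OVA list. Rps6ka5 had 37.9 and 16.1.

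Peaks annotated to an exon of the retained-intron transcript itself come nearest to the label. Their 5 lowest p per list were chosen for description after the values were seen. The lowest p among them, in both lists, was that of Fam193b at chr13:55542763-55549140. This peak of 2 blocks had identical ends, 1050 exonic bp, and fold enrichments of 7.14 (log10 p -1010) in the OVA list and 7.43 (log10 p -1110) in the PBS list. The zinc-finger gene Zfp687 had 2 such OVA peaks, chr3:95011693-95012380 with 16.2 and chr3:95010825-95011633 with 14.4. A single PBS peak, chr3:95010885-95012351, with 11.6 overlapped both.

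Bicra, which encodes a subunit of the BAF chromatin remodelling complex, had 15.7 at chr7:15987985-15989423 in the OVA list and 9.95 in the overlapping PBS peak. Atad2, a bromodomain ATPase, had 15.4 and 15.9 at chr15:58097362-58098754. Its peak lies wholly inside the retained-intron transcript. Pstk, the kinase that makes phosphoseryl-tRNA for selenocysteine, had a PBS peak of 16.8 at chr7:131391611-131392478. The overlapping OVA peak, with 13.7, was assigned to a retained-intron transcript of the neighbouring gene Ikzf5. Vegfa, the endothelial growth factor, had 7.15 for OVA and 5.18 for PBS.

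Most retained-intron peaks were present in both lists, where present means that at least 1 exonic base overlapped some peak, whatever its biotype, of the other list. Among OVA members 4536 overlapped (81.5%) and 1033 did not (18.5%), and 19.4% of all OVA peaks did not. Among PBS members 4613 overlapped (87.8%) and 640 did not (12.2%), where 14.5% of all PBS peaks did not. Both shares without overlap are near the background, so they set the retained-intron peaks little apart. The 3′ UTR members overlapped most, 86.4% for OVA and 91.5% for PBS. Exonic members did so in 73.3% and 82.2%, and 5′ UTR members in 75.2% and 79.7%. Protein_coding peaks also overlapped most in 3′ UTRs, at 85.7% and 89.8%. Their shares were 78.5% and 81.9% in exons, and 75.6% and 79.8% in 5′ UTRs.

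The partner in the other list was nearly always of the same kind. It was itself a retained-intron peak for 97.3% of overlapping OVA members and 97.4% of PBS members, and on the same transcript for 96.5% and 96.6%. Start and end were both identical for 623 OVA members (13.7%) and 625 PBS members (13.5%). In 4260 pairs each peak was the best partner of the other and both were of the retained-intron biotype. Across these pairs fold enrichments were correlated, with a Spearman coefficient of 0.88 and a Pearson r of 0.87 on the log2 scale. Paired points share their site and sequence, and peaks of a gene share its RNA, so this is a description of the lists. In the top 10% by fold enrichment, 556 peaks for OVA and 525 for PBS, 319 pairs were in both, which is 57.4% and 60.8%.

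Members without overlap were short and weak, as were peaks without overlap in general. Their median fold enrichment was 2.29 for OVA and 2.65 for PBS, against 5.425 and 4.94 for overlapping members. Their exonic length had a median of 121 and 120 bp, against 390 and 360. Over all peaks, the medians without overlap were 2.87 and 3.45 with 121 exonic bp in both lists, and with overlap 6.50 and 5.87. Among the retained-intron members without overlap, a fold enrichment under 2 was found for 37.7% and 31.4%, though 92.5% and 90.8% still had an FDR under 0.05. Of these members, 74.5% of the OVA and 75.5% of the PBS peaks were on a gene with some peak in the other list, and 58.7% and 63.1% on a gene with a retained-intron peak there.

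The OVA member without overlap that had the lowest p belonged to Aoc1, which encodes diamine oxidase, an enzyme that degrades histamine. This exonic peak of 1584 bp, chr6:48905235-48907396, had a fold enrichment of 27.5 and a log10 p of -453. A second Aoc1 peak in the 3′ UTR was present in both lists, chr6:48908680-48909188 with 15.3 (log10 p -190) in the OVA list and chr6:48908770-48909188 with 19.2 (log10 p -7.93) in the PBS list. The exonic Aoc1 peak was thus listed for the OVA group alone, while the ratio of the 3′ UTR peak was no higher there.

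Jchain, which joins the units of polymeric IgA and IgM, was also among the OVA members without overlap. Its 3′ UTR peak at chr5:88520648-88520797 had a fold enrichment of 1.77 with a log10 p of -103, and Jchain had no peak of any biotype in the PBS list. The ratio is modest beside its very low p. A p depends on the number of reads as well as on the ratio, and the lists give no read numbers.

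Cybb encodes the catalytic subunit of the phagocyte NADPH oxidase. It had 3 retained-intron peaks in the OVA list, and the only Cybb peak of the PBS list overlapped 1 of them, with 2.80 for OVA and 2.10 for PBS. The OVA peaks chrX:9437826-9438126 (fold enrichment 2.57) and chrX:9437347-9437527 (1.53) overlapped no Cybb peak of the PBS list. Hmgxb4, an HMG-box gene, had an OVA peak of 4 blocks without overlap, chr8:75023228-75030724, with 9.37. Its 5′ UTR retained-intron peak had the same ends in both lists, chr8:74993744-74999676, with 11.5 and 7.00.

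PBS members without overlap were led by Dbp, a circadian transcription factor of the PAR bZIP family. Its exonic peak at chr7:45707125-45707454 had a fold enrichment of 5.58 and a log10 p of -158, and the exon is that of the retained-intron transcript. Dbp also had a protein_coding 5′ UTR peak in both lists, with 8.09 for OVA and 32.3 for PBS. All Dbp peaks were thus either higher in the PBS list or found there alone.

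Limch1, a regulator of actomyosin, had a PBS exonic peak of 1.67 at chr5:66998666-66998816 without overlap. Its strong 3′ UTR signal, assigned to a nonsense_mediated_decay transcript, was in both lists with 10 and 9.06. Ppp1r10 encodes PNUTS, a nuclear subunit of protein phosphatase 1. Its PBS peak without overlap that had the lowest p (4.99) was called on the neighbouring Gm16279. Another PBS peak of Ppp1r10, chr17:35911739-35911947, had 20.7 with a log10 p of -6.35 and overlapped no OVA peak of Ppp1r10. Esyt3, which tethers the endoplasmic reticulum to the plasma membrane, had 5.23 at chr9:99317974-99318244 and no OVA peak of any kind.

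By gene rather than by peak, 3017 genes had a retained-intron peak in both lists and 3691 in either. Only the OVA list held such a peak for 424 genes (12.3% of its member genes), and only the PBS list for 250 (7.65%). For protein_coding peaks the like shares of genes were 13.5% and 10.7%. No PBS peak of any biotype was found for 253 member genes of the OVA list (7.35%), where 12.5% of all genes with an OVA peak had none. No OVA peak was found for 141 member genes of the PBS list (4.32%), where 8.95% of all genes with a PBS peak had none. These shares were not tested. A single retained-intron peak was found on 61.4% of the OVA genes and 61.8% of the PBS genes, and 4 or more on 185 (5.38%) and 164 (5.02%). A peak of another biotype was also present on 38.8% and 37.2% of the genes.

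Some genes carried many members. Dst, a giant linker of actin, microtubules and intermediate filaments, carried 10 retained-intron peaks for OVA and 11 for PBS. The strongest Dst peak by p, chr1:34186043-34189120, had 11.4 in the OVA list beside 6.94 in the PBS list, while chr1:34180097-34180487 had 6.88 beside 15.4. Peaks of the same gene thus differed in opposite directions. Zfhx2, a zinc-finger homeobox gene, carried 10 and 12. Its highest peak, chr14:55091695-55092054, was annotated as 5′ UTR with 33.9 in the OVA list, and its PBS partner as an exon of the retained-intron transcript with 28.6.

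Col6a3, a chain of the collagen VI of lung matrix, carried 9 in the OVA list. They ranged from 1.30 to 11.8, the highest at chr1:90778816-90779416 with a PBS partner of 7.83. Jmjd1c, a jumonji-domain gene, carried 8 in the OVA list, with 13.1 beside 13.2 in its strongest peak. Kdm5b, a demethylase of histone H3 lysine 4, carried 8 in the PBS list, and its 3′ UTR peak chr1:134631206-134631806 had 24.6 beside an OVA partner of 16.8. Fat4, a giant protocadherin of planar cell polarity, also carried 8 in the PBS list. A single OVA peak of Fat4, chr3:38887479-38891972, with 29.2 covered the place of 2 PBS peaks with 10.1 and 3.64. Shroom3, which drives apical constriction of epithelial cells, carried 8 in the PBS list with 1.77 to 7.71.

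Overlap inside a list adds a little to such counts. Bases were shared with another retained-intron peak of the same list by 216 OVA members (3.88%) and 195 PBS members (3.71%), and with a peak of any biotype by 433 (7.78%) and 398 (7.58%). Egr3, a zinc-finger factor of the immediate early response, shows it: its 8 OVA peaks form 4 overlapping pairs, such as chr14:70079156-70079425 with 5.94 and chr14:70079173-70079412 with 6.41. Its 6 PBS peaks form 3 such pairs, and the pair at chr14:70079263-70079442 had 3.13 and 2.85.

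A retained-intron peak was found on 24.4% of the 14126 genes with any OVA peak and on 24.1% of the 13569 genes with any PBS peak. The gene groups below are read against these shares and were not tested. The shares count genes of every biotype. Among genes for which the lists give Gene Ontology terms the share was higher, 3392 of 10545 for OVA and 3217 of 10196 for PBS. Paired values are fold enrichments, the OVA list first and the PBS list after it. Among SR splicing factors, which bind exonic enhancers, 7 of the 11 genes with a peak had such a peak for OVA and 6 of 9 for PBS. Srsf5 had 11.5 and 10.2 in a 3′ UTR peak starting at the same base in both lists, chr12:80949728-80950387 in the OVA list. Srsf6 had 9.93 and 10.3 in a 5′ UTR peak inside the retained-intron transcript, chr2:162931528-162932162. Srsf11 had 4.95 and 3.77, and Srsf7 only 2.40 and 1.61. For Srsf4 the OVA peak had 6.08 and the PBS retained-intron peak 8.47. Tra2b, chosen after its values were seen, had one in the OVA list alone.

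The kinases that phosphorylate SR proteins, CLK and SRPK, had 4 of 6 genes for OVA and 4 of 5 for PBS, the same 4 genes. Clk1, whose retained introns are a textbook case, had an exonic peak of 3.59 and 4.70 and a 5′ UTR peak of 3.56 and 2.29, all inside the assigned transcript. The exonic Clk1 peak of the OVA list is at chr1:58419941-58420120 and the other at chr1:58421812-58424066. Srpk1 had a 3′ UTR peak of 4.36 for OVA and 13.3 for PBS at chr17:28589416-28590075. Its other peaks went the other way, with 3.15 and 3.19 beside 2.10 and 2.35. Clk3 had 4.27 and 2.66, and Srpk3 6.07 and 3.60.

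The hnRNP proteins, which coat nascent RNA, had 7 of 22 genes for OVA and 10 of 20 for PBS. All 7 were among the 10, and the others, named after their values were seen, were Hnrnpm, Hnrnpul2 and Ptbp1. Hnrnpl carried 4 peaks in each list, the strongest exonic one at chr7:28815760-28816268 with 10.6 and 6.43. Ptbp3 had 11.0 and 15.1 at its 3′ end. Hnrnpll, a regulator of splicing in activated lymphocytes, had 8.44 and 5.94. Hnrnpm shows how assignment moves the counts, since its PBS peak of 8.05 overlapped an OVA peak of 7.65 that was assigned to a protein_coding transcript.

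The core spliceosome and the factors that recognise splice sites had 20 of 32 genes for OVA and 17 of 27 for PBS, above the background shares. Snrnp70 encodes a protein of the U1 particle, and its 3′ UTR peak chr7:45376573-45377203 had 24.2 and 19.1. Srrm2, a giant scaffold protein of nuclear speckles, had 22.3 and 17.4 at chr17:23811821-23812270. Prpf31, which helps assemble the tri-snRNP, had an OVA peak of 20.7 whose PBS partner (14.6) was assigned to the adjacent Cnot3. Prpf38b had 6.14 and 5.88, and Sf3a1 5.05 and 4.67. The minor spliceosome had Zrsr2 and Zcrb1 in both lists, 2 of 10 genes for OVA and 2 of 7 for PBS, near the background shares. Zcrb1 had 4.79 and 1.60, and the Zrsr2 peak with the higher fold enrichment had 5.75 and 3.95.

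Nonsense-mediated decay, the pathway that degrades RNA with premature stop codons, had 5 of 15 genes for OVA and 4 of 14 for PBS, exon junction proteins included. Upf3a had an exonic peak on the retained-intron transcript itself, chr8:13786326-13786565, with 4.16 and 3.08, and a 3′ UTR peak of 5.73 and 6.09. The strongest Rnps1 peak, 6.90 and 6.07, was called on the neighbouring gene Abca3. Nuclear speckle and export genes had 6 of 16 and 5 of 15. Mbnl1, a muscleblind splicing factor, carried 5 peaks in each list with 5.35 and 5.67 as the highest, and the nuclear pore gene Tpr carried 5 with none over 2.85.

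Of the m6A writer genes only Rbm15 had a retained-intron peak, 1 of 7 genes with a peak for OVA and 1 of 6 for PBS. RBM15 guides the writer complex to RNA. Its large exonic peak lay inside the retained-intron transcript, chr3:107330112-107332596, with 20 and 22.0, and its 3′ UTR peak had 9.34 and 5.08. Erasers and readers had 5 of 10 and 4 of 9. Prrc2a, a reader, had the highest of them, an exonic peak at chr17:35156307-35156996 with 59.0 for OVA and 39.7 for PBS. Ythdc1, the nuclear reader, had 5.26 and 3.15 at chr5:86816961-86817320, where a shorter peak that starts 1 bp before it, chr5:86816960-86817106, was called on Gm43055 with 5.38 and 4.18. Its 3′ UTR peak had 3.22 and 4.01. Hnrnpa2b1 had 3.28 and 2.88, and Fmr1 2.75 and 2.01. Of the genes that make or recycle the methyl donor S-adenosylmethionine, Shmt1 had 8.72 and 5.67 and Mat2b 2.49 and 3.24, 2 of 5 genes and 2 of 4.

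Transcription factors and regulators of the immediate response had 6 of 20 genes in each list, the same 6. Fosl2, a partner of Jun in AP-1, had 18.7 and 15.7 at chr5:32152718-32153946. Dusp1, a phosphatase that turns off MAP kinases and is induced by glucocorticoids, had 11.1 and 12.8. Klf6 had 9.79 and 10.8 in its strongest peak. Nr4a1, an orphan nuclear receptor, had 8.10 and 5.95 in an exon and 6.12 and 4.13 in the 3′ UTR.

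Chemokines, cytokines and their receptors carried few members, 9 of 52 genes for OVA and 6 of 45 for PBS, under the background shares. All 6 were among the 9, and the others, named after their values were seen, were Ccl2, Csf2ra and Il2ra. Ifngr1, a chain of the interferon gamma receptor, had 13.4 and 11.8 at chr10:19609300-19610139. Tnfrsf1a, a receptor of tumour necrosis factor, had a peak with identical ends in both lists, chr6:125361710-125362484, with 12.4 and 12.5. Il16 had 12.4 and 11.0 in a 5′ UTR peak. Il17rb, a subunit of the receptor for interleukin-25, an alarmin of allergic airways, had 8.34 for OVA and 3.73 for PBS. The chemokine gene Ccl6 had only 1.42 and 1.37.

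Downstream of cytokine receptors, JAK, STAT and SOCS genes had 6 of 17 for OVA and 6 of 18 for PBS. Stat6, which carries the signal of interleukin-4 and interleukin-13, had 6.99 and 6 at chr10:127659849-127660598. Stat2, of interferon signalling, had 37.7 and 25.2 at chr10:128290976-128291682, downstream of its retained-intron transcript. Stat4, of interleukin-12 signalling, had identical ends, chr1:52106981-52107189, with 22.8 and 9.62. The inhibitors Pias4 and Socs2 had 15.0 and 14.7, and 12.3 and 14.

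Lymphocyte receptors and signalling genes had 15 of 36 for OVA and 14 of 32 for PBS. The T-cell adhesion receptor Cd2 had 14 and 6.69 in an exonic peak inside the retained-intron transcript, chr3:101287467-101287851. Syk, a kinase of B-cell and Fc receptors, had 14.3 and 12 in a peak with the same ends in both lists, chr13:52643574-52647536. Its 3 other OVA peaks, of 1.44, 1.58 and 2.85, had no overlap. Dock2, which moves lymphocytes, had 11.6 and 14.2, and the B-cell genes Cd72 and Ms4a1 had 11.2 and 11.3, and 3.34 and 3.01. Myeloid and granulocyte genes had 5 of 10 and 4 of 10. The scavenger receptor gene Cd163 had 11.6 and 9.87 at its 3′ end but 2.09 and 6.02 in an upstream exon. Itgax had 3.26 and 3.35, and Mrc1 2.76 and 2.42. Kit, the stem cell factor receptor of mast cells, had a weak OVA peak of 1.45 and no PBS peak.

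The lung label was checked with marker genes. Of 8 airway and alveolar epithelial markers, 7 had some peak in each list, Sftpc being the exception, and only Sftpb had a retained-intron peak. Of 6 endothelial and stromal markers 5 had a peak and 4 a retained-intron peak, in both lists. Of 10 immune markers, 5 had a peak for OVA and 4 for PBS, and 3 had a retained-intron peak in each. Among 4 muscle and heart markers, 1 had a peak for OVA (Ttn) and 3 for PBS (Myh6, Ttn and Tnnt2).

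In the longer epithelial list 5 of 18 genes with an OVA peak and 5 of 17 with a PBS peak had a retained-intron peak, the same 5. Sftpb, a surfactant protein, had identical ends, chr6:72314162-72314371, with 4.00 and 3.22, and Sftpd, a surfactant lectin, had 5.24 and 5.12. Cftr, the chloride channel of cystic fibrosis, had 12.9 and 12.7. The water channel gene Aqp5 had 5.89 and 3.97, and Napsa, an aspartic protease that processes surfactant protein B, had 1.93 and 1.85. Motile cilia genes had 11 of 24 and 9 of 27. Cfap44 had 14.7 and 12.3, Rfx2, a regulator of ciliary genes, 8.60 and 5.86, and Ccdc40 4.64 and 5.62. The dynein gene Dnah7b had 4.11 and 2.73 at chr1:46137556-46139773, and a PBS peak of 15.3, chr1:46271107-46276967, that overlapped no OVA peak.

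Endothelial and stromal genes had 11 of 18 for OVA and 11 of 17 for PBS, the same 11 genes and above the background. Kdr, the main VEGF receptor, had 15.6 and 14.2 in its 3′ UTR, chr5:75933697-75934597. The collagen genes Col1a1 and Col1a2 had 5.87 and 5.01, and 6.07 and 6.30, each downstream of the assigned transcript. Col6a1 had 6.87 and 4.79, and the strongest of 4 Col6a2 peaks 6.98 and 5.30.

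Muscle and heart genes had 3 of 7 for OVA and 5 of 14 for PBS, so that more of them had some peak in the PBS list. The sarcomere gene Ttn had 22.6 beside 8.33 at chr2:76944439-76944559 and 18.5 beside 8.54 at chr2:76945099-76945159, upstream of its retained-intron transcript, and a PBS peak of 7.28 without overlap. Ryr2, the cardiac calcium release channel, had 10.8 and 5.75, and Casq2, the cardiac calsequestrin, 21 and 7.59. Myh7, a cardiac myosin heavy chain, had retained-intron peaks in the PBS list alone, with 2.62 as the highest. The higher number of muscle genes with a PBS peak stands beside these values, and the part of muscle content in them was not tested. Cytosolic ribosomal protein genes had 0 of 4 and 1 of 7, the latter being Rps19 with 1.74. These are too few genes to set apart from the background shares of 24.4% and 24.1%.

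Gene Ontology terms carried in the lists were counted over the genes for which the list gives terms. RNA splicing was a term of 2.45% of 3392 genes with a retained-intron peak in the OVA list (1.98 to 3.02) and of 1.75% of 10545 genes with any peak (1.52 to 2.02). In the PBS list the shares were 2.52% and 1.72%. The term mRNA processing had 3.10% beside 2.33%, and 3.14% beside 2.30%. Nucleus was a term of 40.2% beside 35.0%, and 40.3% beside 35.0%. Immune system process stood at 3.27% beside 2.91%, and 3.20% beside 2.75%. Inflammatory response stood at 1.68% (1.30 to 2.17) beside 1.95%, and 1.65% (1.26 to 2.15) beside 1.87%, so both intervals hold the share of all genes with a peak. Membrane had 36.1% beside 37.3%, and 35.8% beside 37.4%. Genes with a retained-intron peak are part of the genes with any peak, and these shares were not tested.

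The share of peaks assigned to retained-intron transcripts varied by chromosome. Among the autosomes and X it was lowest on chromosome 4, at 10.1% of OVA peaks and 10.2% of PBS peaks, then on chromosome 11 (13.2% and 12.7%) and chromosome 2 (16.1% and 15.7%). Chromosomes 1 (25.6% and 25.8%) and 5 (25.6% and 25.3%) were at the other end. On chromosomes 4, 2 and 11 the processed_transcript share was high in its place, 29.7% and 30.3%, 24.9% in both lists, and 23.3% and 22.7%. The biotype given to a noncoding transcript thus varied by chromosome in both lists alike. No peak on the mitochondrial chromosome, of 11 for OVA and 18 for PBS, was a member, nor were the 2 OVA peaks on Y.

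Sequence could be shown for exonic members that reach the bases just before a RefSeq gene start, since promoter windows are the genomic sequence at hand. The 5 stretches of at least 100 bases found in peaks of both lists were chosen after the values were seen. The motif searched is GGAC followed by T, A or C, the core of the usual m6A site, on the strand of the transcript, and matches are in capitals. Vegfa is shown because its exon annotation names the retained-intron transcript itself in both lists, although this stretch lies before the start of that transcript. It is the stretch chr17:46025196-46025323 (128 bases, minus strand, RefSeq GRCm38.p6) of a peak with 7.15 and 5.18, and 32.2% of 32851 windows cut at the same place hold the motif. Ank2, a membrane adaptor of ankyrin type, is shown for its match inside a peak upstream of its retained-intron transcript, with 5.22 and 13.8. Its stretch is chr3:126943393-126943633 (241 bases, minus strand), and 51.6% of windows cut alike hold the motif.
Vegfa: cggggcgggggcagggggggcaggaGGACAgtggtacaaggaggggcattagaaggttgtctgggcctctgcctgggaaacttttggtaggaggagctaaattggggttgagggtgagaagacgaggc
Ank2: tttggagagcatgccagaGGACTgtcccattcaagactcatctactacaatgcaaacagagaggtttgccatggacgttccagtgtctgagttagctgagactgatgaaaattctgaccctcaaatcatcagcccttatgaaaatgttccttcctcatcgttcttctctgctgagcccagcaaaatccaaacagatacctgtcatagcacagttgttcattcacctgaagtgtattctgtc

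The stretches of Chkb (choline kinase), Srcap (a chromatin remodeller) and Tapbp (tapasin, of antigen loading) held 0 matches on their strand, where 44.6%, 52.8% and 28.0% of windows hold the motif. A match is a description of letters, and its absence from a window says nothing of the rest of the peak. The Srcap peak had 11.1 and 14, the Chkb peak 3.96 and 6.97, and the Tapbp peak 4.51 and 3.66. In Srcap and Chkb the ratio was thus higher in the PBS list and in Tapbp in the OVA list.

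A member on Dgcr8 contains microRNA hairpins, the only hairpins found whole inside a member by position, and it was chosen after its values were seen because DGCR8 is the RNA-binding partner of Drosha in microRNA processing. Its 5′ UTR peak, chr16:18283791-18284689 for OVA and chr16:18284000-18284689 for PBS, had fold enrichments of 4.90 and 4.80. Both peaks contain the hairpins Mir1306 at chr16:18284239-18284317 and Gm24572 at chr16:18284550-18284637, on the minus strand. The mature sequences of RefSeq are given with the seed, bases 2 to 8, in capitals, and no seed is shared among them.
miR-1306-3p: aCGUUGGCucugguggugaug
miR-1306-5p: cACCACCUccccugcaaacgucc
miR-3618-3p: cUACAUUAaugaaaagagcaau
miR-3618-5p: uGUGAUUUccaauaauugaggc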

How the data were processed

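Both groups had 3 mice, each with an IP and an input library. For the authors' lists, reads passed through FASTP, HISAT2 placed them on GRCm38 (Ensembl version 101), exomePeak compared IP with input, and ChIPseeker annotated the peaks. The deposited ratio is the fold enrichment of IP over input within a peak. The deposited score columns hold the log10 p and the log10 FDR, which reach minus infinity. The other deposited values are width in bp, the number of exonic blocks and the distance in bp to the start of the assigned transcript. No column of a single mouse exists (0 used), and the lists do not give the reads behind a peak.

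Members were all peaks of either list with the biotype retained_intron. Starts were read as 0-based and 1 was added: start minus transcript start was -1 for 649 OVA and 606 PBS peaks and 0 for 20 and 19, while ends were equal for 869 and 812. The deposited width goes the other way, since it is 1 bp more than the span so read for all 27292 and 26102 peaks, so starts may be off by 1 bp. Positions were checked against RefSeq GRCm38.p6, where 98.4% of OVA and 98.2% of PBS members on a listed gene overlapped it. Peaks overlapped when at least 1 bp of exonic blocks was shared, and place was read from the blocks against the assigned transcript's span. Named peaks were, per list and with an FDR under 0.05, the 5 with the highest fold enrichment, the 5 with the lowest log10 p, the 5 of these without overlap, the 5 genes with most members, and the 5 highest products over both lists. Up to 5 genes of each of 20 gene lists (531 genes), those with the lowest log10 p, were also named. Exceptions are stated where they occur. Members and gene lists were chosen with earlier results of these data known. Alternatives changed the FDR and fold enrichment minimums, the overlap rule, the width, and which peaks count as assigned. Python 3.11.15, numpy 2.4.6, scipy 1.17.1 and pandas 2.3.3 were used, and the code was tested on simulated data.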

Additional observations from a re-analysis of the deposited data

How the results depend on the processing

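Of 94 alternatives computed, 60 were counted as unchanged and 34 as moved. Unchanged meant a value within its 95% interval or a count within its allowed range. For the difference in median fold enrichment between protein_coding and retained-intron peaks it meant only the same direction. Values are given for the OVA and then the PBS list. Keeping only peaks whose exon annotation names the assigned transcript left 257 and 231 peaks, 8.59% and 8.21% of the peaks so filtered, on 229 and 204 genes, with median fold enrichments of 3.39 and 3.45, and by construction 0% in 3′ UTRs. The share without a base in the assigned transcript, computed for this subset after seeing the data, is likewise 0% in both lists by construction. A fold enrichment minimum of 2, which raises a median by construction, gave medians of 5.485 and 5.53, shares of the list of 19.5% and 19.2%, and a 3′ UTR share of 62.5% in the OVA list. Where the called gene had to be the assigned gene, the class made up 25.2% and 25.0% of the list. Overlap with the other list fell to 71.8% and 76.0% when 50% of both peaks had to be shared, to 11.2% and 11.9% with identical ends, and to 79.9% and 86.3% when the partner had to be a retained-intron peak. Genes of 1 list only numbered 253 and 141 when any peak of the other list, whatever its biotype, removed a gene. Median width was 330 and 301 bp over summed blocks. The lower median fold enrichment of retained-intron than of protein_coding peaks kept its direction in all subsets, which were chosen after seeing the data. Where construction does not show it, the cause was not tested. No paired analysis was possible because the lists hold no value of a single mouse, although labels of both groups share replicate numbers, and leaving out a replicate could not be run for the same reason. The lists do not give the reads behind a peak, which limits every absence: a peak not listed may have been missed for lack of reads.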
